A study of Mus musculus and Homo sapiens with 81 samples.

Results

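HT29 is an established human colon cancer cell line of epithelial type. The cells described here were HT29 cells of the Ptpn2-null genotype, treated for 48 h with 100 ng/mL interferon gamma (IFNg; 2 libraries) or with vehicle (PBS with bovine serum albumin; 2 libraries), and they are 4 of the 81 poly(A) RNA-seq libraries of the series. Members were chosen by label alone: the HT29 count columns of the Ptpn2-null genotype. The series asked how loss of the phosphatase PTPN2 changes the transcriptional effect of cytokines on cancer cell lines. HT29 control cells, which carried a non-targeting guide (labelled Bro4) and received IFNg (2 libraries) or vehicle (2 libraries) in the same way, were used for the shared spread and for the genotype difference at the end. All 4 groups expressed Cas9, were infected with a guide-carrying lentivirus and were grown in DMEM with serum.

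Ptpn2-null is the genotype as labelled (Ptpn2ko, guide Ptpn2sg3, 1 guide per genotype), and the protein was not measured here. The labels do not say whether the libraries of a group came from separate cultures, so the tests may reflect technical spread alone and speak for these libraries. The label of 1 control library, IFNg replicate 1, gives a lung cell type beside the HT29 cell line and was grouped by its title and cell line. The genotype and the guide-carrying population cannot be told apart.

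IFNg binds a receptor of the chains IFNGR1 and IFNGR2, and the kinases JAK1 and JAK2 on that receptor start a phosphorylation signal to the nucleus. The signal switches on IRF1 and, through it, CIITA, the master regulator of MHC class II genes. PTPN2 is a tyrosine phosphatase that removes phosphate from Janus kinases and STAT proteins, and SOCS proteins form a further brake. In intestinal epithelium IFNg is known for raising antigen presentation and chemokine output, and for slowing proliferation.

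The libraries held between 7188704 and 9605776 counts in the IFNg group and between 7562078 and 8696985 in the vehicle group, and the control libraries held 6848609 to 7633477. Of 23227 genes in the table, 12555 passed the filter on low counts and were tested. Levels are given in CPM, that is, relative to the library size after TMM scaling. PTPN2, the targeted gene, had 26.5 and 27.6 CPM in Ptpn2-null cells under IFNg and 15.4 and 16.7 CPM in Ptpn2-null cells under vehicle, against 39.8 and 40.2 CPM in control cells under IFNg and 27.9 and 28.9 CPM in control cells under vehicle. The mRNA was thus lower in the Ptpn2-null libraries at either treatment but present, and a gene-level count does not show whether the protein is made. Of 10 colon epithelial markers 8 were tested: EPCAM, CDH1, KRT20, VIL1, LGALS4 and CEACAM5 were present, while CDX1 and GPA33 were below the filter and CDX2 and CDH17 lay near it. The summed level of the 10 was 1886 and 1868 CPM under IFNg and 1363 and 1359 CPM under vehicle. Of 11 leukocyte markers the defining genes PTPRC, CD3E, CD3D and MS4A1 had 0 counts in all 4 Ptpn2-null libraries. The sum of the 11 was 131 and 138 CPM under IFNg, against 38.4 and 38.8 CPM under vehicle, and the 4 tested members all rose at least 2-fold: ITGAM (3.88 ± 0.35, log2 fold change ± SE), CD68 (2.75 ± 0.11), CD4 (2.60 ± 0.58) and CD14 (1.07 ± 0.090). ITGAM, an integrin chain of myeloid cells, had 8.59 and 8.34 CPM under IFNg and 0.524 and 0.602 CPM under vehicle. The part of other cells in the IFNg response was not tested.

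IFNg changed most measured genes of Ptpn2-null HT29 cells. Of 12555 tested genes, 8510 (67.8%) were called, 4184 higher (33.3%) and 4326 lower (34.5%) under IFNg than under vehicle. A call is an adjusted p under 0.05 in edgeR's quasi-likelihood test with Benjamini-Hochberg adjustment, and it applies wherever a gene is said to have risen or fallen. The rises were the larger: 1520 genes (12.1%) were at least 2-fold higher and 1078 (8.59%) at least 2-fold lower. Those 1520 genes together held 25.5% and 25.7% of all counts in the IFNg libraries and 5.86% in each of the vehicle libraries. The common biological coefficient of variation was 0.0266, so that small changes passed the test in abundant genes, and a share of called members near those background shares says little about a group. The split between directions depends on the scaling. With unscaled library totals the median of all genes shifted by -0.32 on the log2 scale, against -0.035 with TMM, and 2669 genes were called higher and 6858 lower.

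**Figure D1:**
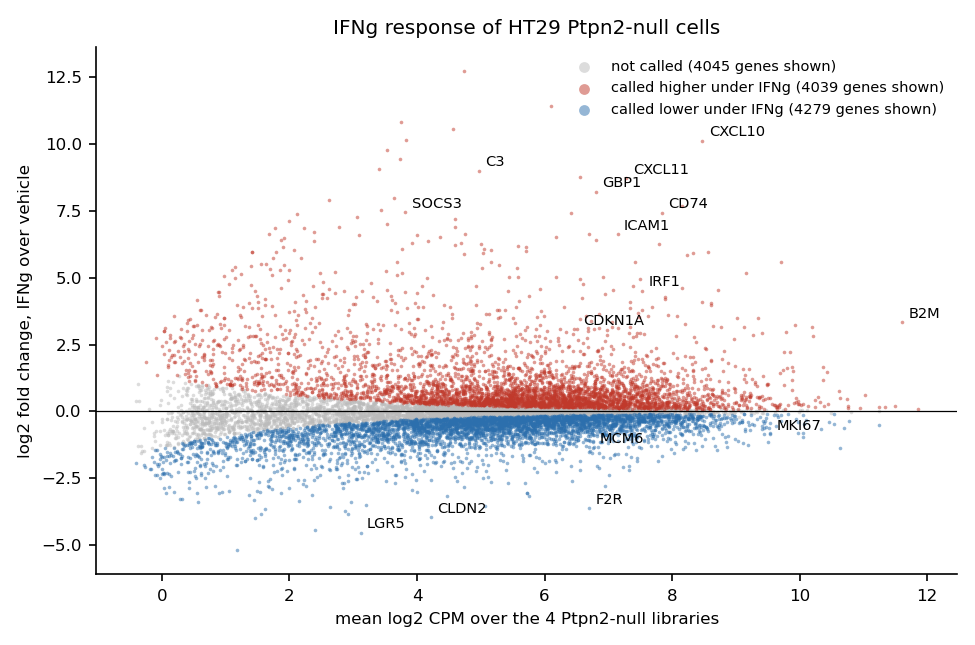
Each point is a tested gene of the Ptpn2-null cells, with its mean level over the 4 libraries (log2 CPM) on the horizontal axis and its log2 fold change, IFNg over vehicle, on the vertical axis. Genes called higher (red) reach far above the genes called lower (blue), with CXCL10 at 10.13 and LGR5 at -4.53. Genes with 3 or fewer counts in either group are not drawn.

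The mRNAs of the IFNg receptor and its kinases were themselves raised. All 7 interferon receptor chains and Janus kinases rose, 3 of them at least 2-fold. JAK2, the kinase bound to IFNGR2, had 249.5 and 227 CPM under IFNg and 11.8 and 12.04 CPM under vehicle, a log2 fold change of 4.32 ± 0.080 (SE). IFNGR1, the ligand-binding chain, rose by 1.96 ± 0.048 (log2) and IFNAR2, a chain of the type I interferon receptor, by 1.84 ± 0.10, while JAK1 (0.69 ± 0.057), IFNGR2 (0.66 ± 0.079) and TYK2 (0.36 ± 0.092) rose less. The rise of TYK2 was lost with unscaled library totals, where it was 0.066.

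STAT2, a transcription factor of type I interferon signalling, had 621 and 633 CPM under IFNg and 50.9 and 47.3 CPM under vehicle (log2 fold change 3.67 ± 0.051). Its relatives STAT5A (2.73 ± 0.12), STAT3 (1.95 ± 0.046) and STAT6 (0.97 ± 0.045) rose by less. STAT5B went the other way: its libraries lay at 14.5 and 11.3 CPM under IFNg and 18.7 and 21.3 CPM under vehicle, and it fell (-0.60 ± 0.14). STAT4 was below the filter.

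Of 8 interferon regulatory factors tested, 7 rose. IRF1, an early target of the pathway, had 874 and 899 CPM under IFNg and 41.1 and 36.1 CPM under vehicle, a log2 fold change of 4.52 ± 0.053. IRF7, known for driving type I interferon genes, rose by 2.34 ± 0.057, IRF2, a relative of IRF1 that often opposes it, by 1.85 ± 0.091, and IRF9, the DNA-binding partner of STAT2, by 1.49 ± 0.077. IRF8, a factor best known from myeloid cells, had 0 counts in both vehicle libraries and 2.32 and 1.24 CPM under IFNg, at least 11.04-fold higher against a floor of 3 counts over the vehicle group.

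The brakes on the pathway rose as well, and 2 members went the other way. Of 10 negative regulators 8 rose and 2 fell. SOCS1, an inhibitor of Janus kinases, had 116 and 142 CPM under IFNg and 0.419 and 0.963 CPM under vehicle (7.54 ± 0.19), and SOCS3, which binds receptors as well as kinases, had 164 and 174 CPM under IFNg and 1.15 and 0.722 CPM under vehicle (7.45 ± 0.14). Both were close to absent without IFNg. SOCS2, which acts mainly on growth hormone signalling, rose by 5.19 ± 0.24, USP18, which removes ISG15 from proteins and restrains the type I receptor, by 3.78 ± 0.15, the SOCS family member CISH by 2.48 ± 0.42, the phosphatase PTPN6 by 1.19 ± 0.11 and PTPN2 itself by 0.75 ± 0.12. The phosphatases PTPN1 (-0.33 ± 0.050) and PTPN11 (-0.50 ± 0.047) fell.

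**Figure D2:**
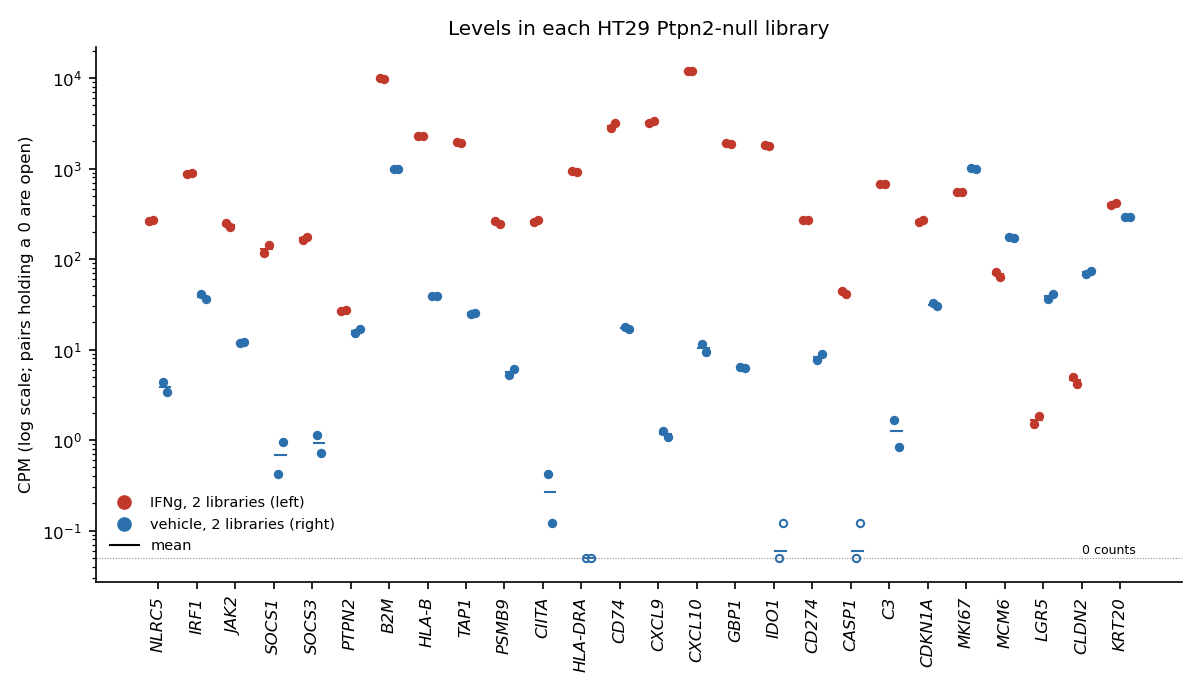
Levels of 26 genes in each of the 4 Ptpn2-null libraries, in CPM on a log axis; for each gene the 2 IFNg libraries stand left of the 2 vehicle libraries, and short lines mark the means. Libraries of a group lie close together where counts are high, but not near 0, as for CIITA under vehicle (0.419 and 0.120 CPM). The groups overlap for none of the genes drawn. Some of these were picked for a large change without overlap, so this does not speak for other genes. Both vehicle libraries of HLA-DRA held 0 counts.

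Genes of antigen presentation by MHC class I rose. All 8 class I genes tested rose at least 2-fold, with a median log2 fold change of 4.35, against -0.035 over all tested genes. HLA-B had 2272 and 2288 CPM under IFNg and 39.6 and 38.8 CPM under vehicle (5.86 ± 0.049), and NLRC5, the transactivator of class I genes, had 266 and 267 CPM under IFNg and 4.40 and 3.37 CPM under vehicle (6.08 ± 0.095). B2M, the light chain shared by all class I molecules, was already at 984 and 991 CPM under vehicle and reached 10086 and 9778 CPM under IFNg (3.33 ± 0.035). HLA-F (6.04 ± 0.093), HLA-C (3.96 ± 0.046) and HLA-E (3.48 ± 0.040) rose too. Reads of the class I heavy chains can be assigned to the wrong member, since their sequences are close, so the sizes for single heavy chains are uncertain.

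Peptide supply followed the same direction. TAP1, a subunit of the transporter that brings peptides into the endoplasmic reticulum, had 1975 and 1895 CPM under IFNg and 24.8 and 25.6 CPM under vehicle (6.26 ± 0.054). All 9 loading genes rose, 8 of them at least 2-fold: TAP2 (4.10 ± 0.044), the tapasin-related TAPBPL (2.97 ± 0.14), the peptide-trimming enzymes ERAP1 (2.07 ± 0.074) and ERAP2 (2.06 ± 0.048), tapasin itself (TAPBP, 1.92 ± 0.042), and the chaperones CALR (1.66 ± 0.035) and PDIA3 (1.59 ± 0.041). CANX, a chaperone of many other glycoproteins, rose by 0.36 ± 0.034, a call lost with unscaled library totals (0.069). The 5 immunoproteasome and PA28 genes all rose at least 2-fold. PSMB9, a catalytic subunit of the immunoproteasome, had 266 and 243 CPM under IFNg and 5.24 and 6.14 CPM under vehicle (5.49 ± 0.092). PSMB8 (3.08 ± 0.075), PSMB10 (2.76 ± 0.071) and the activator subunits PSME2 (2.35 ± 0.094) and PSME1 (1.66 ± 0.047) rose by less. PSMB9 and TAP1 are near neighbours in the genome, and how the counting treated reads of neighbouring genes is not given in the sources used here. Among 14 constitutive proteasome genes 13 rose, but 1 reached 2-fold, PSMB7, the subunit that PSMB10 replaces (1.25 ± 0.068).

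MHC class II genes, close to 0 without IFNg, were switched on. CIITA had 254 and 271 CPM under IFNg and 0.419 and 0.120 CPM under vehicle, a log2 fold change of 9.79 ± 0.15. That fold rests on 5 vehicle counts in all, so its SE overstates precision. HLA-DRA, the alpha chain of the DR heterodimer, had 929 and 919 CPM under IFNg and 0 counts in both vehicle libraries, at least 5502-fold higher. HLA-DPA1 (319 and 325 CPM under IFNg) and HLA-DPB1 (42.1 and 38.9 CPM under IFNg) had 0 counts under vehicle too, and were at least 1914-fold and 242-fold higher. The same held for HLA-DRB5, HLA-DRB1, HLA-DQB1 and HLA-DQA1, at least 219.6-fold, 148-fold, 53.6-fold and 18.1-fold higher. HLA-DRB1 and HLA-DRB5 are close paralogs whose reads may be shared, so the presence of either alone is uncertain.

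The genes that load class II molecules rose with them. CD74, the invariant chain that guards the binding groove, had 2833 and 3152 CPM under IFNg and 17.6 and 16.9 CPM under vehicle (7.44 ± 0.060). HLA-DMA, which helps exchange the CD74 fragment for peptide, rose by 5.87 ± 0.11. Its partner HLA-DMB had 58.2 and 62.1 CPM under IFNg and 0.105 and 0.241 CPM under vehicle, where 3 counts were seen in all, a ratio of 356 (95% exact binomial counting interval 121 to 1729.8, which covers counting error only). HLA-DOB, which restrains that exchange, rose by 6.85 ± 0.31, the protease CTSS, which cuts CD74, by 5.03 ± 0.059, and the lysosomal reductase IFI30 by 4.75 ± 0.062. In all, 17 of the 18 class II genes rose, with a median of 7.58 on the log2 scale, or 7.03 with genes absent under vehicle set at their lower bound. The exception, RFXAP, is a subunit of the RFX complex that binds class II promoters: it fell, with 4.296 and 4.63 CPM under IFNg and 13.3 and 12.9 CPM under vehicle (-1.56 ± 0.19), whereas its partner RFX5 rose (1.71 ± 0.063).

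Chemokines that attract T cells rose by some of the largest folds. CXCL10, a ligand of the receptor CXCR3 on activated T cells, had 11842 and 11881 CPM under IFNg and 11.6 and 9.39 CPM under vehicle (10.13 ± 0.058; adjusted p 2.5e-74, edgeR's quasi-likelihood test). The other CXCR3 ligands moved likewise: CXCL9 had 3202 and 3391 CPM under IFNg and 1.26 and 1.08 CPM under vehicle (11.43 ± 0.080), and CXCL11 had 3276 and 3075 CPM under IFNg and 8.28 and 6.62 CPM under vehicle (8.72 ± 0.065). Of 13 chemokines tested 12 rose, all of them at least 2-fold. CX3CL1, a membrane-tethered attractant, rose by 6.58 ± 0.13, CCL5, which attracts T cells and monocytes, by 5.17 ± 0.14, and CXCL16, the ligand of CXCR6, by 3.15 ± 0.087. The neutrophil attractants CXCL2 (4.12 ± 0.18), CXCL3 (4.06 ± 0.15), CXCL1 (2.89 ± 0.083) and IL8 (1.44 ± 0.054) rose as well. CCL2, the monocyte attractant, had 0 counts in both vehicle libraries and 60.6 and 61.3 CPM under IFNg, at least 362-fold higher.

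Guanylate-binding proteins, GTPases that attack intracellular microbes, rose in all 6 tested members. GBP1 had 1921 and 1862 CPM under IFNg and 6.39 and 6.26 CPM under vehicle (8.22 ± 0.066), GBP4 rose by 7.68 ± 0.053, GBP2 by 4.55 ± 0.056 and GBP3 by 3.10 ± 0.065. GBP5 had 1659 and 1606 CPM under IFNg and was near 0 under vehicle (0 and 0.481 CPM), with a fitted log2 fold change of 12.73 ± 0.11 that rests on a handful of vehicle counts. Members of this family share sequence, so reads may be split among them.

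Genes of tryptophan breakdown and of its loading onto tRNA were higher. IDO1, which breaks down tryptophan, had 1821 and 1777 CPM under IFNg and 0 and 0.120 CPM under vehicle, where 1 count was seen in all. WARS, the tryptophanyl-tRNA synthetase, had 5745 and 5818 CPM under IFNg and 123 and 119 CPM under vehicle (5.58 ± 0.042), and KYNU, an enzyme further along the breakdown path, rose by 2.26 ± 0.14. The other 4 genes of that list were below the filter.

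All 44 antiviral interferon-stimulated genes rose at least 2-fold, with a median log2 fold change of 3.54. TRIM22, a ubiquitin ligase, had 1110.5 and 1084 CPM under IFNg and 7.23 and 5.54 CPM under vehicle (7.41 ± 0.069). SAMD9L (6.63 ± 0.078), the membrane protein IFITM1 (6.40 ± 0.065), the DNA sensor IFI16 (5.98 ± 0.078), IFIT2, which binds viral RNA (5.95 ± 0.053), and the exonuclease ISG20 (5.602 ± 0.091) had the next largest rises, with 11.9 and 12.2 CPM of IFITM1 already under vehicle. The smallest rises were those of ZC3HAV1, a zinc-finger protein that targets viral RNA (1.63 ± 0.042), and EIF2AK2, the kinase PKR (1.71 ± 0.057). Several were well expressed without IFNg: OAS2, which makes the activator of RNase L, had 2041 and 2029 CPM under IFNg and 91.1 and 83.3 CPM under vehicle, and ISG15, a ubiquitin-like modifier, had 1335 and 1242 CPM under IFNg and 155 and 137 CPM under vehicle.

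**Figure D3:**
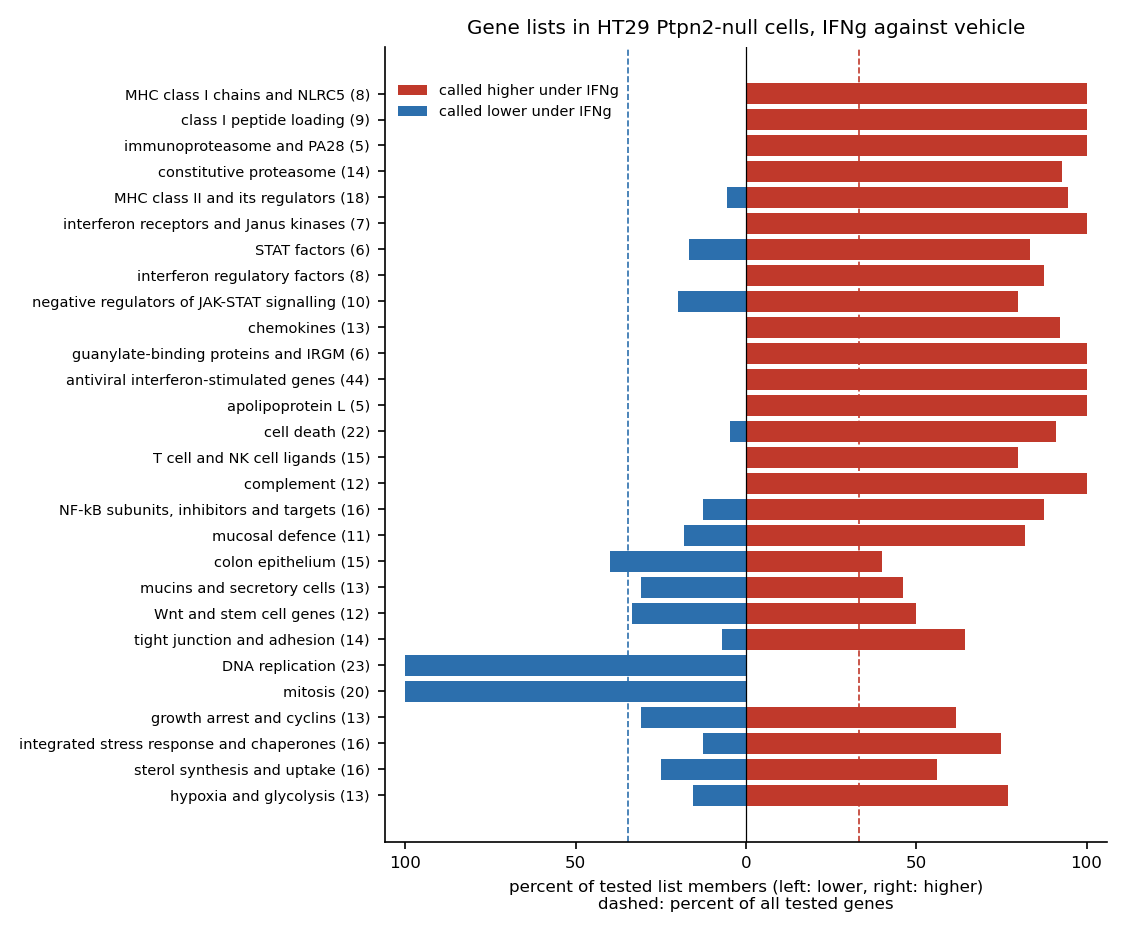
Share of the tested members of each gene list (number in brackets) that was called higher (right, red) or lower (left, blue) under IFNg in Ptpn2-null cells. Dashed lines mark the shares over all tested genes, 33.3% and 34.5%. The immune lists reach or approach 100% higher, DNA replication and mitosis reach 100% lower, and the colon, mucin and Wnt lists are mixed.

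Complement genes, made by epithelium as well as liver, were switched on. C3, the central component, had 673 and 668 CPM under IFNg and 1.68 and 0.843 CPM under vehicle (9.01 ± 0.099). C1R (388 and 413 CPM under IFNg and 0 and 0.722 CPM under vehicle) and C1S (440.3 and 433 CPM under IFNg and 0.419 and 0 CPM under vehicle), the proteases of the first component, and their inhibitor SERPING1 (762 and 794 CPM under IFNg and 0.210 and 0.843 CPM under vehicle) rose by 10.15 ± 0.15, 10.83 ± 0.13 and 10.54 ± 0.11. Under vehicle C1R and C1S held 6 and 4 counts in all and SERPING1 was near 0, so these SE overstate precision. C2 had 0 counts under vehicle and was at least 147-fold higher. CFB, of the alternative pathway, rose by 6.52 ± 0.071, and CD55, which protects cells from complement, rose less (1.75 ± 0.049). All 12 tested complement genes were called higher, 10 of them at least 2-fold, and with unscaled library totals 2 were called lower. All 5 apolipoprotein L genes rose, among them APOL3, which lyses bacteria in the cytosol (5.91 ± 0.098), the trypanosome-lysing APOL1 (4.27 ± 0.051) and APOL6 (2.81 ± 0.046). APOL4 had 101 and 108 CPM under IFNg and 0 and 0.241 CPM under vehicle. Their reads may also be split among close paralogs.

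Of 11 tested genes of mucosal defence 9 rose and 2 fell. DUOX2, an oxidase that makes hydrogen peroxide at the gut surface, had 22.9 and 28.4 CPM under IFNg and 0.210 and 0.120 CPM under vehicle, and its maturation factor DUOXA2 had 0 counts under vehicle and was at least 35.9-fold higher. PIGR, which carries IgA across the epithelium, rose by 4.04 ± 0.37, and LCN2, which binds bacterial siderophores, by 0.75 ± 0.048. NOS2, the inducible nitric oxide synthase, was at 2.21 and 1.85 CPM under IFNg and 0 under vehicle (at least 12.2-fold higher). The antibacterial enzyme LYZ fell, with 2073 and 1969 CPM under IFNg and 2793 and 2980.1 CPM under vehicle (-0.51 ± 0.035), and the secreted lectin REG4 fell to 0.116 and 0.154 CPM under IFNg, against 4.09 and 3.73 CPM under vehicle.

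Genes of cell death mostly rose: 20 of 22 tested, with 1 lower (2 with unscaled library totals). CASP1, the caspase of the inflammasome, had 44.2 and 41.7 CPM under IFNg and 0 and 0.120 CPM under vehicle, a ratio of 770.1 (95% exact binomial counting interval 138 to 30462). TNFSF10, the death ligand TRAIL, had 2448 and 2520.0 CPM under IFNg and 43.1 and 39.0 CPM under vehicle (5.91 ± 0.049). ZBP1, a sensor of Z-form nucleic acid (5.57 ± 0.15), CASP10 (3.55 ± 0.077), the pore-forming GSDMB (2.92 ± 0.10), the death receptor FAS (2.65 ± 0.077), BAK1, which permeabilises mitochondria (2.41 ± 0.10), MLKL, the executioner of necroptosis (2.27 ± 0.080), and CASP8 (1.62 ± 0.066) rose. XIAP, an inhibitor of caspases, fell (-0.38 ± 0.049), and BCL2L1, a survival protein, was not called (-0.082 ± 0.039; adjusted p 0.059, edgeR's quasi-likelihood test).

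Ligands seen by T cells and NK cells rose in 12 of 15 tested genes, and none fell (1 did with unscaled library totals). CD274, the checkpoint ligand PD-L1, had 269.8 and 273 CPM under IFNg and 7.65 and 8.91 CPM under vehicle (5.04 ± 0.084). ICAM1, the adhesion ligand of lymphocyte integrins, had 1381 and 1431 CPM under IFNg and 14.4 and 13.8 CPM under vehicle (6.64 ± 0.059). LGALS9 (2.81 ± 0.078), CEACAM1 (2.204 ± 0.040) and TNFRSF14 (2.02 ± 0.090), which bind the inhibitory receptors TIM-3, CEACAM1 and BTLA, and ULBP3, a ligand of the NK receptor NKG2D (2.06 ± 0.34), were at least 2-fold higher. PDCD1LG2, CD80, CD86 and CD40 were below the filter.

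Of 16 NF-kB genes 14 rose and 2 fell. RELA, the main activating subunit, had 421 and 460.4 CPM under IFNg and 112 and 108 CPM under vehicle (1.99 ± 0.050), and RELB, of the alternative pathway, rose by 2.45 ± 0.076. Among the targets and inhibitors, IL32, a cytokine, had 165 and 179 CPM under IFNg and 0.838 and 0.481 CPM under vehicle (7.96 ± 0.15), TNFAIP3, which ends NF-kB signalling, rose by 3.96 ± 0.12, BIRC3 by 3.46 ± 0.064 and the inhibitor NFKBIA by 2.14 ± 0.068. TRAF1, an adaptor of TNF receptors, fell at low counts (1.04 and 1.54 CPM under IFNg and 3.67 and 3.01 CPM under vehicle, -1.40 ± 0.39). REL, another subunit, fell by 0.53 on the log2 scale, and this call was lost with DESeq2 (-0.50, adjusted p 0.094).

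Among the genes with the largest rises, several belong to none of these groups. UBD, a ubiquitin-like protein that sends substrates to the proteasome, had 3048 and 3130.2 CPM under IFNg and 0.105 and 0.120 CPM under vehicle, where 2 counts were seen in all, a ratio of 27516 (95% exact binomial counting interval 7617 to 227217). AIM2, the cytosolic DNA sensor (63.9 and 59.9 CPM under IFNg), KRT6A, a keratin of stressed epithelium (58.5 and 59.3 CPM under IFNg), CSF2RB, the shared beta chain of the GM-CSF receptor (41.5 and 34.0 CPM under IFNg), SP140, a nuclear body protein (28.1 and 27.2 CPM under IFNg), and LGALS17A (308 and 329 CPM under IFNg) had 0 counts in both vehicle libraries. They were at least 369.9-fold, 350.1-fold, 228-fold, 165-fold and 1888-fold higher. SFTPA1, a surfactant protein of the lung, was also raised, at 7.43 and 5.56 CPM under IFNg and 0.105 and 0 CPM under vehicle, while the surfactant genes SFTPB and SFTPC were below the filter.

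The largest falls were smaller than the largest rises. LGR5, the marker of intestinal stem cells and a receptor that strengthens Wnt signals, fell to 1.51 and 1.85 CPM under IFNg, against 36.3 and 41.5 CPM under vehicle (-4.53 ± 0.19; adjusted p 6.5e-30, edgeR's quasi-likelihood test). CLDN2, a claudin that forms a leaky pore in tight junctions, fell to 4.99 and 4.17 CPM under IFNg, against 68.7 and 74.7 CPM under vehicle (-3.94 ± 0.13). F2R, the thrombin receptor, fell to 31.3 and 27.2 CPM under IFNg, against 367 and 364 CPM under vehicle (-3.63 ± 0.062). The growth factor FGF9 (-5.19 ± 0.42), ADRA2A, an adrenergic receptor (-4.45 ± 0.24), SOSTDC1, a BMP and Wnt antagonist (-3.84 ± 0.20), the gap junction protein GJB1 (-3.83 ± 0.34), the collagen and elastin cross-linking enzyme LOXL1 (-3.74 ± 0.21), KIAA1199, a hyaluronan-degrading protein (-3.57 ± 0.23), the membrane protein SLITRK6 (-3.52 ± 0.10), the basement membrane protein FREM2 (-3.50 ± 0.18) and the scaffold MAGI2 (-3.40 ± 0.20) fell to a like extent. The pseudogene ZDHHC8P1 had 3 counts in all under IFNg and 15.8 and 16.4 CPM under vehicle. PHGR1, a gut epithelial protein, fell to 0.813 and 0.309 CPM under IFNg, against 9.33 and 9.87 CPM under vehicle (-3.97 ± 0.34).

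Genes of the colon epithelium did not move as a group: of 15 tested 6 rose and 6 fell, shares near those over all genes. CEACAM5, the carcinoembryonic antigen, had 220.0 and 227 CPM under IFNg and 3.46 and 2.167 CPM under vehicle (6.28 ± 0.11), and its close paralog CEACAM6 rose by 5.04 ± 0.089. KRT20, a keratin of differentiated colon cells (0.47 ± 0.040), EPCAM (0.52 ± 0.039) and E-cadherin (CDH1, 0.45 ± 0.038) rose a little. LGALS4, a galectin of gut epithelium (-1.56 ± 0.060), and VIL1, which bundles actin in microvilli (-1.03 ± 0.10), fell. CDX2, the intestinal identity factor, was barely detected: 0 counts under IFNg and 0.524 and 1.32 CPM under vehicle, at least 4.51-fold lower against a floor of 3 counts over the IFNg group. CDH17, an intestinal cadherin, had 0.348 and 0 CPM under IFNg and 1.47 and 1.20 CPM under vehicle.

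The list of mucin and secretory genes was mixed: 6 of 13 tested genes rose and 4 fell. MUC4 had 183 and 196 CPM under IFNg and 0.314 and 0.361 CPM under vehicle (9.07 ± 0.17), MUC1 had 187 and 216 CPM under IFNg and 3.04 and 2.29 CPM under vehicle (6.21 ± 0.15), and MUC13 and MUC17, membrane mucins like them, rose by 4.08 ± 0.052 and 4.21 ± 0.32. The fold of MUC4 rests on 6 vehicle counts in all, so its SE overstates precision. The secreted mucin MUC5B rose by 3.53 ± 0.46. The membrane mucin MUC12 was not called (1.144 ± 0.59; adjusted p 0.079, edgeR's quasi-likelihood test), but was called without Ptpn2-null vehicle replicate 2 (2.50; adjusted p 0.016, same test). SPDEF, a factor of goblet cell maturation (-0.81 ± 0.12), and AGR2, which folds secreted mucins (-0.57 ± 0.094), fell. Of 12 Wnt and stem cell genes 6 rose and 4 fell: EPHB3, a Wnt target receptor (-2.03 ± 0.43), and PROM1, a surface marker (-0.59 ± 0.069), fell with LGR5, whereas ASCL2, a transcription factor of the same stem cells (2.06 ± 0.27), and AXIN2, a feedback inhibitor of Wnt (0.62 ± 0.059), rose. MYC was not called (-0.067 ± 0.044; adjusted p 0.18, edgeR's quasi-likelihood test). With unscaled library totals MYC fell (-0.36) and the Wnt list became 3 higher and 7 lower. Of 14 junction and adhesion genes 9 rose and CLDN2 alone fell. The sealing claudins CLDN7 (1.21 ± 0.045), CLDN4 (1.16 ± 0.035) and CLDN3 (0.95 ± 0.056) had 363 and 372, 1398 and 1423 and 199 and 187 CPM under IFNg, against 159 and 158, 622 and 639 and 96.2 and 105 CPM under vehicle. With unscaled library totals 7 junction genes were called lower.

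Proliferation genes fell. All 23 DNA replication genes and all 20 mitosis genes were called lower under IFNg, against 34.5% of all tested genes. Their median log2 fold changes were -0.73 and -1.07, against -0.035 over all tested genes. MKI67, the proliferation antigen, had 552 and 555 CPM under IFNg and 1013 and 983 CPM under vehicle (-0.85 ± 0.036), and TOP2A, which untangles DNA in mitosis, had 302 and 278 CPM under IFNg and 746 and 733 CPM under vehicle (-1.35 ± 0.040). MCM6, of the replicative helicase, had 72.7 and 63.8 CPM under IFNg and 177 and 171 CPM under vehicle (-1.34 ± 0.061). The helicase factor GINS2 (-1.35 ± 0.12), TYMS (-1.17 ± 0.13) and RRM1 (-1.11 ± 0.049), which make DNA precursors, the kinetochore proteins CENPF (-1.33 ± 0.043) and CENPE (-1.23 ± 0.071), the spindle protein ASPM (-1.31 ± 0.046) and the cyclin CCNB2 (-1.20 ± 0.067) fell, as did E2F1, a driver of S-phase genes (-1.05 ± 0.074). The smallest falls in the lists were those of CDC6, which loads the helicase (-0.28 ± 0.059), and PCNA, the sliding clamp (-0.47 ± 0.048), in replication, and of the checkpoint kinase BUB1 (-0.45 ± 0.062) in mitosis. In bulk RNA, fewer cycling cells and less of these mRNAs per cell cannot be told apart.

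CDKN1A, the cell cycle inhibitor p21, had 258 and 271 CPM under IFNg and 32.4 and 29.97 CPM under vehicle (3.08 ± 0.065). The list of arrest genes and cyclins held 8 that rose and 4 that fell among 13 tested, so it did not move one way. CDKN1C, a relative of p21 (1.98 ± 0.32), GADD45B (1.95 ± 0.19) and the G1 cyclin CCND1 (0.74 ± 0.044) rose. BTG2, an antiproliferative p53 target (-1.85 ± 0.091), GADD45A, a damage response gene (-1.32 ± 0.12), and CCNE2, a cyclin of S-phase entry (-0.92 ± 0.11), fell. With unscaled library totals 5 of the list were called higher.

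Genes of the stress response and of endoplasmic reticulum folding rose in 12 of 16 tested members, and 2 fell. ATF3, a stress-induced transcription factor, had 88.1 and 84.3 CPM under IFNg and 5.76 and 5.90 CPM under vehicle (3.89 ± 0.11). CHAC1, which degrades glutathione (2.80 ± 0.19), the chaperones DNAJB9 (1.75 ± 0.083) and HSPA5 (1.61 ± 0.035), PPP1R15A, which restores translation (1.62 ± 0.049), and DDIT3, the factor CHOP (1.59 ± 0.16), rose. SLC7A11, the cystine transporter, fell to 51.2 and 47.9 CPM under IFNg, against 134 and 129 CPM under vehicle (-1.40 ± 0.069). The count of 2 lower members became 4 with unscaled library totals, and 1 with RLE, with DESeq2, with the compared groups alone, and without Ptpn2-null IFNg replicate 2 or either Ptpn2-null vehicle replicate. Sterol genes were mixed, with 9 of 16 higher and 4 lower. INSIG1, which holds back the sterol sensor, rose by 1.62 ± 0.044, MVD and HMGCS1 of the synthesis path by 0.75 ± 0.086 and 0.61 ± 0.043, and MVK of the same path fell (-0.46 ± 0.11). With unscaled library totals the counts were 5 higher and 7 lower, and 2 were lower with DESeq2 or without Ptpn2-null IFNg replicate 1. Of 13 hypoxia and glycolysis genes 10 rose and 2 fell: the peptide hormone ADM (3.63 ± 0.095), VEGFA, the vessel growth factor (1.92 ± 0.066), and NDRG1 (1.68 ± 0.14) rose, while CA9, a carbonic anhydrase (-1.42 ± 0.21), and PDK1, which restrains pyruvate use (-0.68 ± 0.12), fell.

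Whether IFNg acted differently in Ptpn2-null cells than in control cells was tested as the difference of the log2 fold changes, Ptpn2-null minus control, in the same fit. Of 12555 genes 2403 (19.1%) differed, 925 with a higher fold change in Ptpn2-null cells (7.37%) and 1478 with a lower one (11.8%). The higher group held genes that were above control under IFNg, and part of the lower group held antiviral genes that were already above control without IFNg. Over all tested genes, 21.3% were called above and 20.5% below control under IFNg, and 12.5% above and 8.66% below control under vehicle. Of the 925, 758 rose under IFNg in Ptpn2-null cells and 848 were called above control under IFNg. Of the 1478, 1013 fell under IFNg in Ptpn2-null cells and 309 rose, 443 were called above control under vehicle, and 1121 below control under IFNg. Fewer genes passed with DESeq2, 554 higher and 695 lower, so that the counts depend on the tool.

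**Figure D4:**
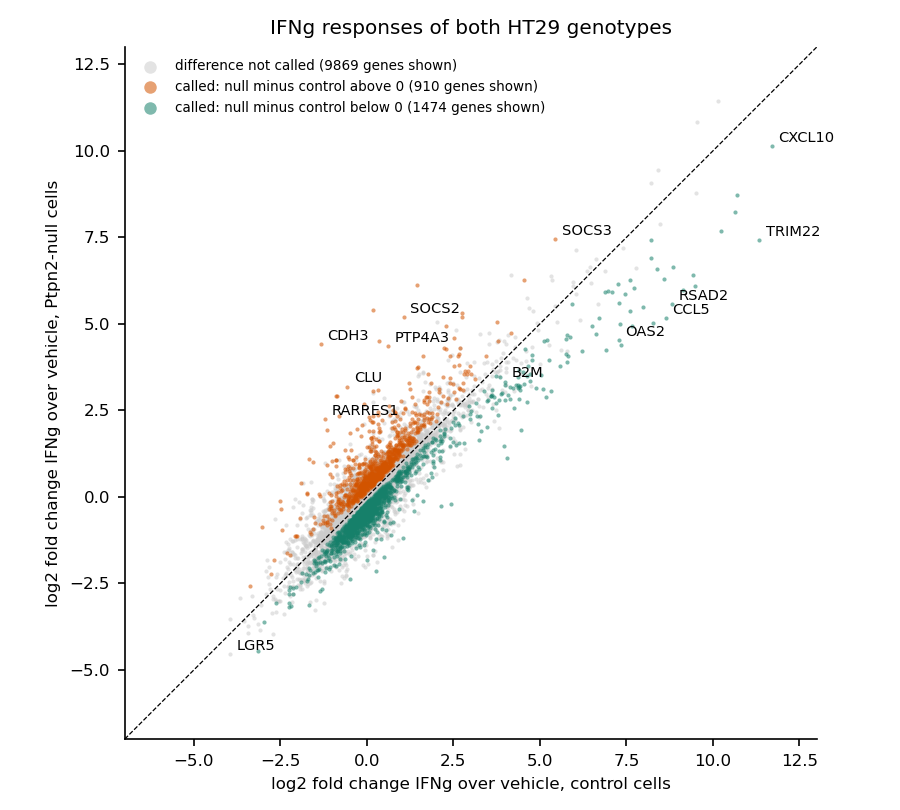
Log2 fold change, IFNg over vehicle, of each gene in Ptpn2-null cells (vertical axis) against control cells (horizontal axis); the dashed line marks equal responses. Genes above the line by the test (orange) include SOCS2 and CDH3, and genes below it (green) include TRIM22, RSAD2, CCL5 and OAS2. Genes with 3 or fewer counts in either group of a genotype are not drawn.

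Some genes with a higher fold change in Ptpn2-null cells were at low levels in control cells. CDH3, the cadherin P-cadherin, had 25.8 and 24.5 CPM in Ptpn2-null cells under IFNg and 1.68 and 0.602 CPM under vehicle, and 0.726 and 0.570 CPM in control cells under IFNg and 2.39 and 0.970 CPM under vehicle (difference 5.73 ± 0.63). SOCS2 had 34.4 and 31.8 CPM in Ptpn2-null cells under IFNg and 1.47 and 0.241 CPM under vehicle, and 1.31 and 0.856 CPM in control cells under IFNg and 0.531 and 0.485 CPM under vehicle (difference 4.12 ± 0.89). Both genes were thus raised in Ptpn2-null cells and low in all 4 control libraries, where CDH3 was lower under IFNg than under vehicle. RARRES1, a retinoic acid-responsive gene, had 253 and 237 CPM in Ptpn2-null cells under IFNg and 47.8 and 56.1 CPM under vehicle, and 20.6 and 24.8 CPM in control cells under IFNg and 49.8 and 55.4 CPM under vehicle, where the IFNg libraries were the lower (difference 3.46 ± 0.12; adjusted p 2.9e-31, edgeR's quasi-likelihood test). The phosphatase PTP4A3 (3.73 ± 0.38), the secreted chaperone CLU (3.75 ± 0.46), the phosphatase ACPP (4.16 ± 0.52), CAND2 (3.77 ± 0.60) and the Notch ligand DLL4 (3.13 ± 0.59) followed, the last 2 at low levels. HSPA6, a heat shock protein, and C2CD4A were named by the same rule: HSPA6 had 29.0 and 29.8 CPM in Ptpn2-null cells under IFNg and 2.18 and 1.71 CPM in control cells under IFNg, and C2CD4A had 46.6 and 46.2 CPM in Ptpn2-null cells under IFNg and 5.52 and 5.56 CPM in control cells under IFNg, and their differences are not given because a vehicle group held 3 or fewer counts. CCL2 had 0 counts in all 4 control libraries, beside 60.6 and 61.3 CPM in Ptpn2-null cells under IFNg.

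SOCS3 had 164 and 174 CPM in Ptpn2-null cells under IFNg and 1.15 and 0.722 CPM under vehicle, and 25.1 and 20.4 CPM in control cells under IFNg and 0.531 and 0.485 CPM under vehicle, a difference of 2.003 ± 0.70 (adjusted p 0.034, edgeR's quasi-likelihood test). That call was lost without control IFNg replicate 2 (adjusted p 0.055), without control vehicle replicate 1 (0.17) or 2 (0.15), and without Ptpn2-null vehicle replicate 2 (0.095). The levels of SOCS3 under IFNg alone differed between genotypes (adjusted p 2.1e-36, same test). CXCL1 (1.09 ± 0.17), RELA (1.28 ± 0.077), CEACAM5 (1.75 ± 0.27) and CLDN3 (1.29 ± 0.087) also had higher fold changes in Ptpn2-null cells. The differences of IL8 (0.10 ± 0.085) and PTPN2 (0.26 ± 0.15) were not called (adjusted p 0.47 and 0.27, same test).

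Antiviral genes had a smaller fold change in Ptpn2-null cells in 41 of 44 cases, against 11.8% of all tested genes with a lower one. Under vehicle all 44 were called above control, against 12.5% of all tested genes. Under IFNg 18 were called above control and 17 below, against 21.3% and 20.5% of all tested genes. OAS2 had 2041 and 2029 CPM in Ptpn2-null cells under IFNg and 91.1 and 83.3 CPM under vehicle, and 2292 and 2279 CPM in control cells under IFNg and 14.6 and 14.8 CPM under vehicle (difference -2.74 ± 0.090). TRIM22 had 1110.5 and 1084 CPM in Ptpn2-null cells under IFNg and 7.23 and 5.54 CPM under vehicle, and 1048 and 1007 CPM in control cells under IFNg and 0.266 and 0.485 CPM under vehicle (difference -3.93 ± 0.37). The genotypes were close under IFNg and apart under vehicle for both genes. RSAD2, an antiviral enzyme (-3.25 ± 0.17), XAF1, which promotes apoptosis (-3.24 ± 0.25), IFI16 (-3.15 ± 0.35), IFITM1 (-3.03 ± 0.23), IFI44L (-2.97 ± 0.15), NLRC5 (-3.39 ± 0.41), GBP1 (-2.43 ± 0.27), PSMB9 (-2.47 ± 0.32), IFIT1, which binds viral RNA (-1.74 ± 0.082), HLA-B (-1.60 ± 0.11), TAP1 (-1.34 ± 0.13), CD74 (-0.76 ± 0.14), B2M (-0.67 ± 0.047) and IRF1 (-0.59 ± 0.097) had smaller fold changes in Ptpn2-null cells too. IFNB1, the gene of interferon beta, had 17.6 and 13.9 CPM in Ptpn2-null cells under IFNg and 0.524 and 0.120 CPM under vehicle, and 20.2 and 19.7 CPM in control cells under IFNg and 0 counts under vehicle. HCP5, a transcript from the MHC region, had 156 and 155 CPM in Ptpn2-null cells under IFNg and 142 and 144 CPM in control cells under IFNg. Of the 8 class I genes 7 were called above control under vehicle, and under IFNg 7 were above and 1 below. Of the 5 immunoproteasome and PA28 genes 4 were above control under vehicle, and under IFNg 0 were above and 2 below. HLA-B had 1912 and 1936 CPM in control cells under IFNg and 11.5 and 10.3 CPM under vehicle, below its Ptpn2-null levels at either treatment. For CD274 the difference was not called (-0.45 ± 0.21; adjusted p 0.14, edgeR's quasi-likelihood test).

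Among the chemokines a smaller fold change did not always mean a lower level. Of 13 tested, 4 had a higher and 5 a lower fold change in Ptpn2-null cells, against 7.37% and 11.8% of all tested genes. Under IFNg 11 were called above control and 1 below, against 21.3% and 20.5%. CXCL9 had 3202 and 3391 CPM in Ptpn2-null cells under IFNg and 438 and 456 CPM in control cells under IFNg, and its difference was not called (1.29 ± 0.68). CXCL10 had 11842 and 11881 CPM in Ptpn2-null cells under IFNg and 11.6 and 9.39 CPM under vehicle, and 5900.1 and 5989 CPM in control cells under IFNg and 1.86 and 1.70 CPM under vehicle (difference -1.57 ± 0.23). Both its levels were thus above those of control cells. CXCL11 had a difference of -1.97 ± 0.27. CCL5 was the reverse under IFNg, with 80.0 and 73.9 CPM in Ptpn2-null cells, against 155 and 161 CPM in control cells (difference -3.47 ± 0.49).

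**Figure D5:**
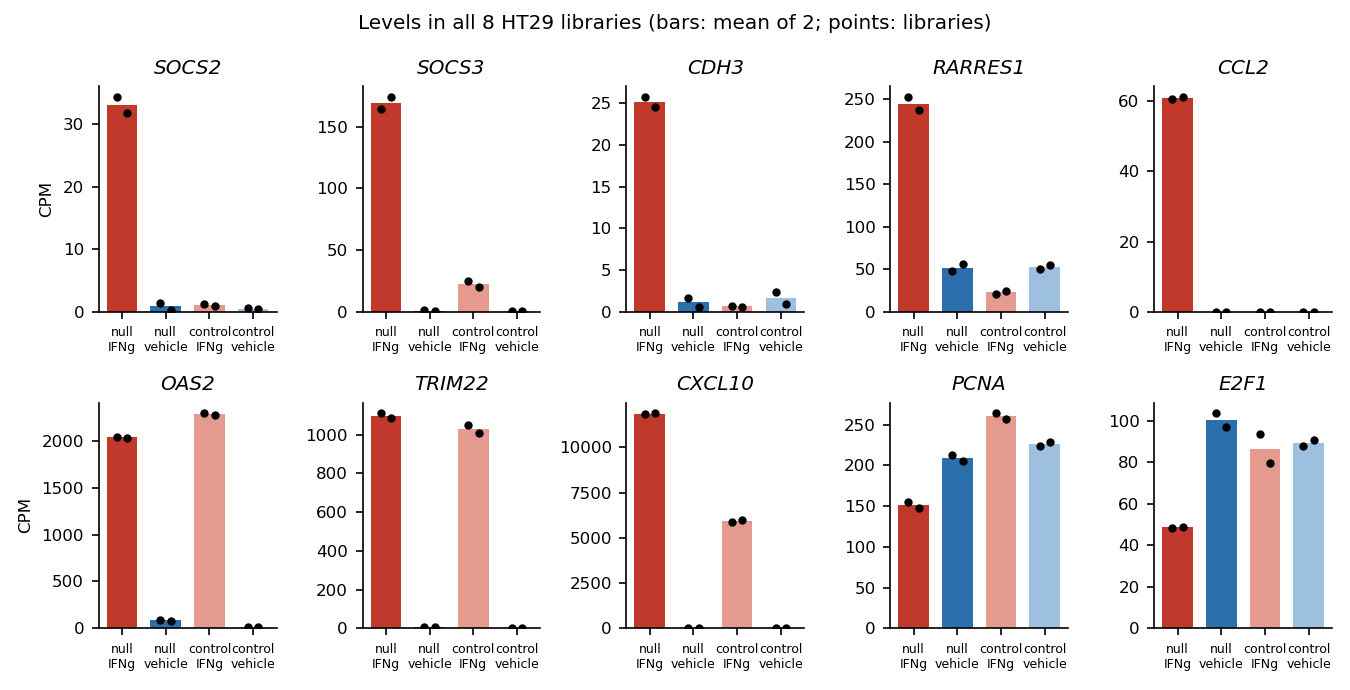
Levels (CPM, linear axes) of 10 genes in all 8 HT29 libraries; bars are means of 2 libraries and points are libraries. SOCS2, CDH3 and CCL2 are high in the Ptpn2-null IFNg libraries alone, TRIM22 and OAS2 are close between genotypes under IFNg, and E2F1 and PCNA are lowest in the Ptpn2-null IFNg libraries.

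Proliferation genes had more negative fold changes in Ptpn2-null cells than in control cells. All 23 DNA replication genes and 17 of 20 mitosis genes (11 with DESeq2) were called in this direction, against 11.8% of all tested genes. Already under vehicle, all 20 mitosis genes and 5 of the 23 DNA replication genes were called below control, against 8.66% of all tested genes. Under IFNg all 23 and all 20 were called below control, against 20.5% of all tested genes. E2F1 had 48.5 and 48.8 CPM in Ptpn2-null cells under IFNg and 104 and 97.1 CPM under vehicle, and 93.5 and 79.7 CPM in control cells under IFNg and 88.0 and 90.6 CPM under vehicle (difference -1.002 ± 0.10). PCNA had 155 and 147 CPM in Ptpn2-null cells under IFNg and 213 and 206 CPM under vehicle, and 264 and 257 CPM in control cells under IFNg and 224 and 229 CPM under vehicle (difference -0.67 ± 0.066). In control cells PCNA was thus higher under IFNg than under vehicle, and the E2F1 libraries of the treatments overlapped. CCNE2 (-1.35 ± 0.15), MCM6 (-0.92 ± 0.083), MKI67 (-0.49 ± 0.050) and TOP2A (-0.48 ± 0.055) differed in the same direction. KRT20 rose less in Ptpn2-null cells (-0.53 ± 0.057), and for LGR5 the difference was not called (-0.58 ± 0.40; adjusted p 0.35, edgeR's quasi-likelihood test).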

How the data were processed

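The authors deposited raw read counts per gene, whole numbers in every cell. The submitters' processing notes name the tools Bowtie2 2.2.4, HTSeq 0.6.1p1, Trimmomatic 0.33 and bcl2fastq 2.17.1.14 and the human build hg19. They name no annotation and no strand setting, so counts of neighbouring, antisense and near-identical genes are uncertain. The libraries were directional poly(A) libraries read in pairs. Counts of the 8 HT29 libraries were fitted together in R 4.3.3. edgeR 4.0.16 filtered low counts with filterByExpr, scaled by TMM and gave robust quasi-likelihood F tests with 1 mean for each group, adjusted by Benjamini-Hochberg over 12555 genes. SE is the log2 fold change over the root of F and overstates precision where a group held few counts. Examples are CIITA, C1R, C1S, MUC4, HLA-DOB and FGF9, and CXCL9 with 21 counts under vehicle. Folds against 0 counts are bounds against 3 counts over the group; for 1 to 3 counts the ratio stands with its 95% exact binomial interval. Alternatives were DESeq2 1.42.0, DESeq2's size factors (RLE), no filter, the compared groups alone, a replicate block, leaving out each library, and library totals. Control libraries were left out for the difference only. Replicates differed beyond sampling noise, most in the Ptpn2-null IFNg group (chi-square per degree of freedom 1.98, against 1.30 to 1.33 in the other groups). The script was tested on simulated data with far fewer changed genes than were called here, so that test does not cover changes on this scale. Genes are PTPN2, 23 fixed genes, up to 15 per direction with the largest change, up to 10 per direction in the difference (mean log2 CPM of at least 1), and up to 6 members of each list plus exceptions; a few members whose calls changed with the scaling, chosen after their values were seen, are not named. Some genes that these rules pick are not reported here. The members, genes and 32 lists were chosen with earlier results of these data known. No human sequence was used here.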

Additional observations from a re-analysis of the deposited data

Results flagged for a closer look

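For 39 named genes the response to IFNg in Ptpn2-null cells differed from that in control cells by edgeR's quasi-likelihood test of the difference itself (adjusted p under 0.05 over all tested genes); each value below is the log2 fold change in Ptpn2-null cells minus that in control cells. Higher fold changes in Ptpn2-null cells were those of CDH3 (5.73), ACPP (4.16), SOCS2 (4.12), CAND2 (3.77), CLU (3.75), PTP4A3 (3.73), RARRES1 (3.46), DLL4 (3.13), SOCS3 (2.003), CEACAM5 (1.75), CLDN3 (1.29), RELA (1.28) and CXCL1 (1.09). The cadherin CDH3 and the signalling brake SOCS2 lead them, and SOCS3 is the one whose call ended when single libraries were left out.

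Smaller rises were those of the antiviral genes TRIM22 (-3.93), RSAD2 (-3.25), XAF1 (-3.24), IFI16 (-3.15), IFITM1 (-3.03), IFI44L (-2.97), OAS2 (-2.74) and IFIT1 (-1.74). The antigen presentation genes NLRC5 (-3.39), HLA-B (-1.60), B2M (-0.67), TAP1 (-1.34), PSMB9 (-2.47) and CD74 (-0.76) had smaller rises too. A smaller rise was not always a lower level under IFNg, where 7 of 8 class I genes were called above control and 1 below. Over all tested genes these shares were 21.3% and 20.5%. The chemokines CCL5 (-3.47), CXCL11 (-1.97) and CXCL10 (-1.57) and the signalling and effector genes GBP1 (-2.43) and IRF1 (-0.59) also had negative differences, as did the keratin gene KRT20 (-0.53). Genes of the cell cycle had more negative fold changes in Ptpn2-null cells, namely E2F1 (-1.002), MCM6 (-0.92), PCNA (-0.67), MKI67 (-0.49), TOP2A (-0.48) and CCNE2 (-1.35). With a single guide per genotype, genotype and guide-carrying population cannot be told apart.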

How the results depend on the processing

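Direction and call were compared among the alternatives for named genes with a fitted change, and mostly held. TYK2 and CANX were no longer called with library totals, and REL was no longer called with DESeq2. MYC and BCL2L1 were called lower with library totals (-0.36 and -0.37). MUC12 was called without 1 library, and the SOCS3 difference lost its call in 4 fits with a library left out. No gene compared in this way changed sign. Named genes given as a bound, a counting interval or levels alone were not compared. A few list members whose calls changed with the scaling are not named, so part of this agreement was fixed by the choice of genes. Library totals in place of TMM, chosen after seeing the data, gave 2669 genes called higher and 6858 lower in the response of Ptpn2-null cells. DESeq2 gave 554 genes higher and 695 lower in the genotype difference, and 11 of 20 mitosis genes lower in it; the cause was not tested. Leaving out each library in turn gave 3847 to 4255 genes higher and 3796 to 3972 lower in the response, and 701 to 1050 higher and 995 to 1445 lower in the difference. The libraries of a replicate number did not deviate together (correlation 0.0206 in Ptpn2-null and 0.0274 in control cells). These correlations cannot show whether equal numbers share a culture or day, which the labels do not say. A replicate block gave 4172 higher and 4297 lower, and 872 and 1406 in the difference. Depth limits the genes with few counts under vehicle, whose folds are bounds or wide intervals. With 2 libraries a group, the spread of a single gene is poorly known.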
